A study of Homo sapiens with 12 samples.

Results

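The genes described here encode the enzymes of the tricarboxylic acid (TCA) cycle, the pyruvate dehydrogenase complex that feeds it, the kinases that switch that complex off, and the proteins that bring pyruvate into mitochondria or carboxylate it there. They were taken by gene symbol from a written list of 31 names, by a rule that reads names and no measured value, although the list itself was drawn up with earlier results of these data known, and all 31 had a row among the 28008 genes of both count tables. Pyruvate made by glycolysis crosses the inner mitochondrial membrane through a carrier built from MPC1 and MPC2. Inside, pyruvate dehydrogenase turns it into acetyl-CoA and pyruvate carboxylase (PC) turns it into oxaloacetate, and the TCA cycle then oxidizes the acetyl group to carbon dioxide and passes the electrons to the respiratory chain. PDK1, PDK2, PDK3 and PDK4 phosphorylate the E1 subunit of pyruvate dehydrogenase and thereby hold pyruvate back from the cycle, which is why these kinases are followed in tumor cells that convert much of their glucose to lactate.

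The cells were QGP-1/tet-MUC1shRNA on the one hand and BON-1/tet-MUC1shRNA on the other, derived from 2 established human pancreatic neuroendocrine tumor (pNET) lines. All cells carried a puromycin-selected lentiviral vector from which doxycycline (DOX) induces a short hairpin RNA against MUC1, which encodes the MUC1-C oncoprotein. Each line was treated with vehicle (0.1% DMSO) or with 500 ng/mL DOX for 7 days, and 3 libraries were made in each of the 4 groups. The comparison asks how the transcripts of these genes stand after MUC1-C silencing. QGP-1 cells were kept in RPMI 1640 and BON-1 cells in DMEM/F-12, so that line and medium cannot be told apart. DOX and the hairpin came together in every treated library, and libraries of DOX-treated cells with a control hairpin were not analysed here. DOX by itself is known to act on mitochondrial translation, and its part and that of the hairpin cannot be told apart.

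The QGP-1 libraries held 38224144 to 50525926 counts and the BON-1 libraries 15981954 to 28484324. MUC1, the target, fell by 2.91 on the log2 scale in QGP-1 cells and by 2.79 in BON-1 cells (edgeR adjusted p = 8.24e-07 and 6.51e-11), without overlap between groups. The 8 neuroendocrine markers checked were detected in all 4 groups, and their summed level in CPM (read counts relative to the library total, without further scaling in this paragraph) was 4390 to 5030 with vehicle and 5260 to 5970 with DOX in QGP-1 cells, against 11800 to 14500 and 8830 to 9290 in BON-1 cells. The markers did not fall as a set in BON-1 cells. CHGA was lower there by 1.46 on the log2 scale (edgeR adjusted p = 2.45e-11), and SYP by 0.34 (in 3 of 6 fits that left out 1 library). SCG2 and SCG3 were higher by 0.45 and 0.27 (in 6 and 4 of the 6 fits), and 4 markers did not pass. Of 12 markers of fibroblasts, immune, endothelial and acinar cells, the summed level was 86.8 to 152 CPM with vehicle and 31.3 to 43.2 with DOX in QGP-1 cells, and 37.5 to 48.7 against 20.3 to 27.5 in BON-1 cells. The acinar gene PRSS1 made up most of it in both lines. In QGP-1 cells PTPRC, CD3E, CDH5, CPA1 and CELA3A were at 0 in all vehicle libraries and CD3E and CPA1 in all DOX libraries. The part of these shifts in the results was not tested. Along the second principal component, DOX replicate 1 stood apart in QGP-1 cells and DOX replicate 3 in BON-1 cells. In bulk RNA, a change in the share of cells that express a gene and a change in RNA per cell cannot be told apart.

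For the genes whose calls went opposite ways in the 2 lines (MPC1, PDK1, SUCLG2 and SDHD), the sequence upstream of the RefSeq transcription start (assembly GRCh38.p14) is shown so that the promoters can be compared. Each run is read 5′ to 3′ in the direction of transcription, starts 250 bases before the start site and stops before any base that GENCODE places in a transcript of the gene. Capitals mark matches, on either strand, to the motif of NRF1, a factor known for driving genes of mitochondrial proteins (GCGCA, any base, then GCGC), to the E-box bound by MYC (CACGTG) or to the core of the hypoxia response element (ACGTG or GCGTG, the former lying within each E-box). The MPC1 run lies at chr6:166383014-166383190 on the minus strand, the PDK1 run at chr2:172555123-172555372 on the plus strand, the SUCLG2 run at chr3:67654613-67654862 on the minus strand and the SDHD run at chr11:112086623-112086823 on the plus strand.
MPC1: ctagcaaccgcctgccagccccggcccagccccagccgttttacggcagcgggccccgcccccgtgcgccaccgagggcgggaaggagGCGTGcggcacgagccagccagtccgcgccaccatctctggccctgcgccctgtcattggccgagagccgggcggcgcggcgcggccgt
PDK1: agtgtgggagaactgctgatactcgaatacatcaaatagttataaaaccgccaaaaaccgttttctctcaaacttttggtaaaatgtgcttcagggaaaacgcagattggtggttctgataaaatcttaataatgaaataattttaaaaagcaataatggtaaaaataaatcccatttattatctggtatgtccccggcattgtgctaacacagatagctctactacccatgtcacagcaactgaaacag
SUCLG2: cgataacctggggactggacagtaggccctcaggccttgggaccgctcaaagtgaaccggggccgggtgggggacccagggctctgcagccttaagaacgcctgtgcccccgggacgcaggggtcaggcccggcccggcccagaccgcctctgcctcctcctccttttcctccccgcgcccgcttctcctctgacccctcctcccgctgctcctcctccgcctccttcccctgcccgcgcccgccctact
SDHD: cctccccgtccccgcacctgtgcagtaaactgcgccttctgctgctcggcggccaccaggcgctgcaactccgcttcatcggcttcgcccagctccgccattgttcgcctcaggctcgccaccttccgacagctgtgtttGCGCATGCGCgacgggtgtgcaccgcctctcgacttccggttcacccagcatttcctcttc
The SDHD run held 1 NRF1 match, and the MPC1 run held 1 GCGTG core with a further one closer to the start. No match was found in the runs of PDK1 and SUCLG2. Promoters were given for 29 of the 31 genes, and those of OGDH and SDHC were missing. Over the 250 upstream bases, the NRF1 motif was found in 6 of 29 (MPC2, SDHA, SDHD, SUCLA2, IDH3A and IDH3G), against 5.53% of 27303 promoters. GCGTG was found in 15 of 29 (31.9% of all promoters), ACGTG in 6 (18.7%) and the E-box in 1, PDHB (6.49%). The median GC content of these stretches was 67.6% for the 29 genes and 58.0% for all promoters. Among the 29 it was lowest for PDK1, at 35.6%. Only 1 stretch per gene was searched, so that a match before another start site would be missed. A match is a run of letters and does not show that a factor binds there.

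In QGP-1 cells, 12 of the 31 genes were lower with DOX and 2 were higher (edgeR adjusted p below 0.05, over all genes tested), where the tested genes numbered 15089, with 17.7% lower and 17.3% higher. The genes that fell were MPC1, PDK1, PDK4, MDH1, SUCLG1, SUCLG2, SDHB, SDHC, SDHD, FH, MDH2 and IDH1, and those that rose were OGDH and PDK3. In BON-1 cells, 4 genes were lower (IDH2, IDH3A, FH and PC), where 18.3% of the 14625 genes tested were lower. In that line 7 genes were higher (DLD, SUCLG2, SUCLA2, SDHD, MPC1, PDK1 and PDK3), where 17.0% of all genes were higher. Over the 31 genes the log2 fold change had a median of −0.18 (QGP-1) and −0.04 (BON-1), against −0.01 for all genes in each line. None reached an absolute log2 fold change of 1. FH was lower and PDK3 higher in both lines, while MPC1, PDK1, SUCLG2 and SDHD fell in QGP-1 cells and rose in BON-1 cells. The groups did not overlap for 16 of the 31 genes in QGP-1 cells and for 13 in BON-1 cells, against 46.7% and 46.3% of all genes tested.

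The summed level of the 31 genes in QGP-1 cells was 3994, 3946 and 4160 CPM with vehicle and 3476, 3367 and 3411 CPM with DOX. All 3 DOX libraries lay below the vehicle libraries. In BON-1 cells the sums were 3631, 3527 and 3521 CPM with vehicle and 3597, 3451 and 3377 CPM with DOX, and these groups overlapped. These and all later CPM values also carry the TMM factors of edgeR, which correct for library composition within a line or, at vehicle, across both lines. 

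**Figure D1:**
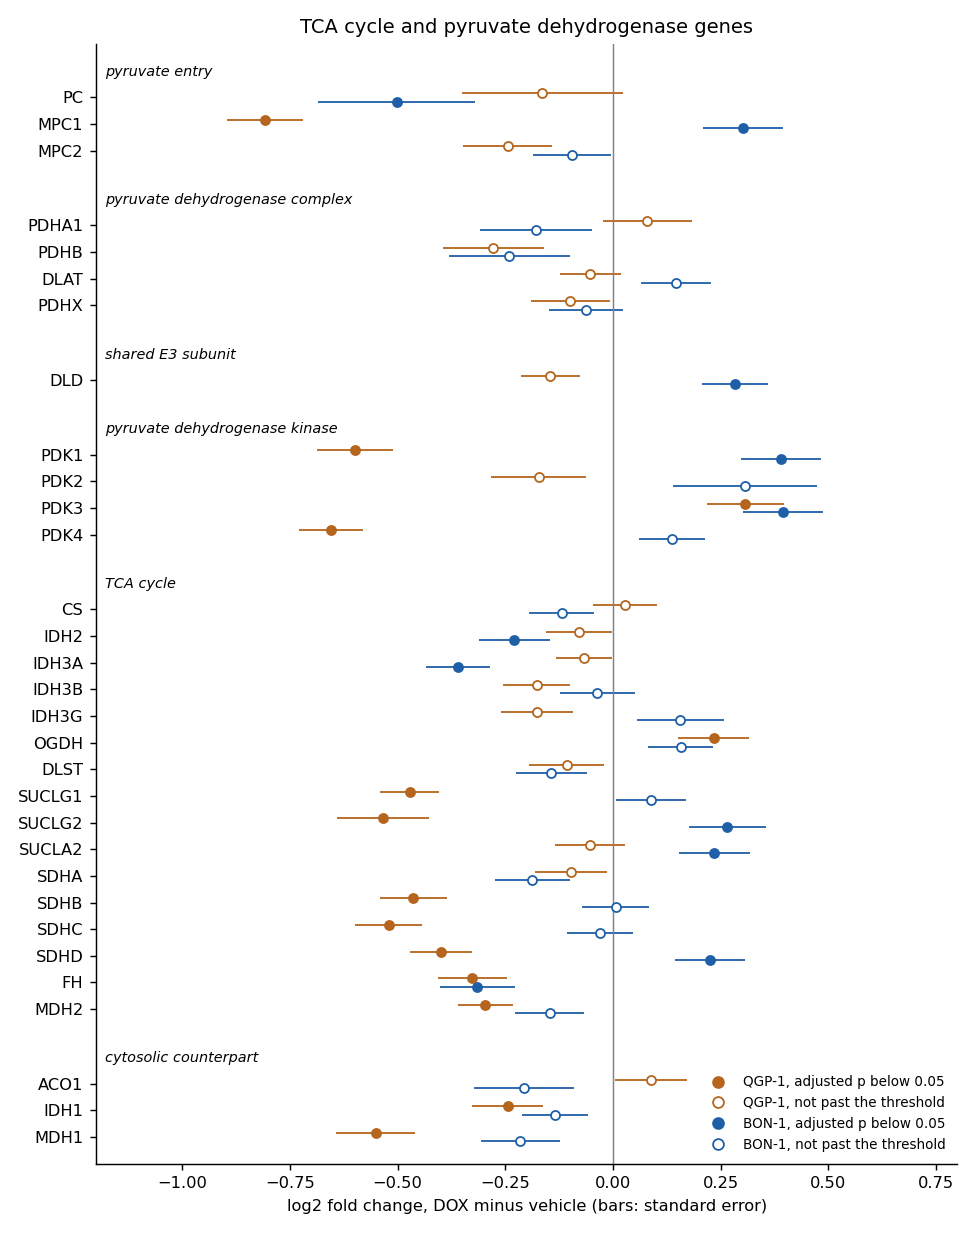
Log2 fold change (DOX minus vehicle, x axis) of each of the 31 genes, grouped by role, with standard errors as bars; brown is QGP-1, blue is BON-1, and filled points passed an edgeR adjusted p of 0.05. In QGP-1 cells MPC1 lies lowest at −0.81, and in BON-1 cells PC lies lowest at −0.50 and PDK3 highest at 0.40.

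MPC1, a subunit that the pyruvate carrier needs in order to work, had the largest fall of the 31 genes in QGP-1 cells. Its level there was 149.8, 162 and 193 CPM with vehicle and 101, 92.9 and 94.8 CPM with DOX. The groups lay well apart, with every DOX library below every vehicle library. The log2 fold change was −0.81 (standard error 0.09, edgeR adjusted p = 1.57e-05). In BON-1 cells the levels were 58.1, 70.1 and 64.8 CPM with vehicle and 84.1, 70.0 and 83.9 CPM with DOX. There the level with DOX was higher (log2 fold change 0.30, standard error 0.09, edgeR adjusted p = 0.0111), with DOX replicate 2 just under the highest vehicle library. Leaving out vehicle replicate 1 (0.23), DOX replicate 1 (0.25) or DOX replicate 3 (0.24) ended this BON-1 call. MPC2, its partner in the carrier, had log2 fold changes of −0.24 (QGP-1) and −0.10 (BON-1), neither past the threshold (edgeR adjusted p = 0.0823 and 0.445). In QGP-1 cells the MPC2 value passed with the replicate number as a block (adjusted p = 0.0241) and with no filter on low counts (adjusted p = 0.0244).

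Taken per transcript length, from the TPM values of the authors, MPC1 made up 81.0% ± 0.717 (SD, n = 3) of the summed MPC1 and MPC2 level in QGP-1 cells with vehicle and 74.2% ± 2.48 with DOX. In BON-1 cells its share was 53.7% ± 1.04 with vehicle and 60.3% ± 3.65 with DOX. The shares did not overlap between groups, and they went down in QGP-1 and up in BON-1. With 3 libraries against 3, an exact two-sided permutation test cannot give a p below 0.1, which is the value of such a comparison without overlap.

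PC, which makes oxaloacetate to refill the cycle, had the lowest mean TPM of the 31 genes in all 4 groups. Its level in BON-1 cells was 9.83, 7.49 and 10.0 CPM with vehicle and 6.74, 6.86 and 5.70 CPM with DOX. The groups were separate, at a log2 fold change of −0.50 (standard error 0.18, edgeR adjusted p = 0.0331). The call was lost without vehicle replicate 1 (−0.44), without vehicle replicate 3 (−0.44), without DOX replicate 3 (−0.44) and with both lines in 1 fit (−0.49). In QGP-1 cells it stood at 10.1, 9.93 and 7.01 CPM with vehicle and 6.61, 10.5 and 7.04 CPM with DOX. These overlapped, with a log2 fold change of −0.16 (adjusted p = 0.537).

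No subunit particular to pyruvate dehydrogenase changed in either line at the edgeR threshold. PDHA1 and PDHB, which form the E1 enzyme that the kinases phosphorylate, had log2 fold changes of 0.08 and −0.28 (QGP-1) and of −0.18 and −0.24 (BON-1). Without QGP-1 vehicle replicate 1 (−0.36) or QGP-1 DOX replicate 3 (−0.37), and with the replicate block (−0.28), PDHB passed as lower. DLAT, the E2 acetyltransferase, had values of −0.05 and 0.15, and PDHX, which anchors E3 in the complex, of −0.10 and −0.06.

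DLD, the E3 dehydrogenase that this complex shares with the 2-oxoglutarate dehydrogenase complex, rose in BON-1 cells. Its level there was 119.9, 113 and 107 CPM with vehicle and 143, 132 and 139 CPM with DOX, without overlap. The log2 fold change was 0.28 (standard error 0.08, edgeR adjusted p = 0.00471). Without vehicle replicate 3 the call was lost at 0.24. In QGP-1 cells DLD stood at 187, 187 and 196 CPM with vehicle and 160.3, 171 and 184 CPM with DOX. The DOX libraries were all lower here, yet the log2 fold change of −0.15 (standard error 0.07) did not pass (adjusted p = 0.121).

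Of the 4 kinases, PDK1 and PDK4 fell and PDK3 rose in QGP-1 cells, whereas PDK1 and PDK3 rose in BON-1 cells. PDK1, known as a target of the hypoxia-inducible factor HIF1, stood at 61.1, 71.9 and 75.4 CPM with vehicle and 46.2, 43.9 and 47.5 CPM with DOX in QGP-1 cells. Its log2 fold change was −0.60 (standard error 0.09, edgeR adjusted p = 0.000166). In BON-1 cells PDK1 went from 36.1, 39.1 and 35.5 CPM to 50.6, 46.1 and 48.5 CPM. The groups were separate in both lines and in opposite order, and the BON-1 log2 fold change came to 0.39 (standard error 0.09, adjusted p = 0.00148).

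PDK4, a kinase known to be induced by fasting and by fatty acids, was at 360.5, 351 and 382 CPM with vehicle and 243, 243 and 208 CPM with DOX in QGP-1 cells. Each DOX library lay far below the vehicle libraries, with a log2 fold change of −0.66 (standard error 0.07, edgeR adjusted p = 2.09e-05). In BON-1 cells it was at 185, 167 and 166 CPM with vehicle and 182, 194 and 195 CPM with DOX. These groups overlapped, and the log2 fold change of 0.14 (standard error 0.08) was not past the threshold (adjusted p = 0.163).

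PDK3 was higher with DOX in both lines. In QGP-1 cells it was at 74.1, 81.1 and 63.0 CPM with vehicle and 93.0, 90.6 and 86.1 CPM with DOX. In BON-1 cells it was at 66.9, 55.2 and 55.7 CPM with vehicle and 74.1, 73.5 and 86.6 CPM with DOX. No DOX library overlapped a vehicle library of its line, and the log2 fold changes were 0.31 (standard error 0.09, edgeR adjusted p = 0.0158) and 0.40 (standard error 0.09, adjusted p = 0.00135). In QGP-1 cells PDK3 no longer passed without vehicle replicate 3 (0.21) or after removal of the trend with gene length described below (0.07, adjusted p = 0.544), while in BON-1 cells PDK3 kept its call under that removal (0.30, adjusted p = 0.00927). PDK2, the kinase that most tissues carry, had log2 fold changes of −0.17 (QGP-1) and 0.31 (BON-1), neither past the threshold (adjusted p = 0.251 and 0.157). Without BON-1 DOX replicate 1 the PDK2 value in that line was 0.47 and passed.

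Per transcript length, PDK4 was the leading kinase transcript in every library. It made up 81.4% ± 1.41 (SD, n = 3) of the summed TPM of the 4 kinases in QGP-1 cells with vehicle and 76.5% ± 1.99 with DOX, and 77.6% ± 0.976 and 74.7% ± 0.823 in BON-1 cells. The share of PDK3 grew from 4.32% ± 0.654 to 7.91% ± 0.225 in QGP-1 cells, and likewise from 7.05% ± 0.413 to 8.13% ± 0.565 in BON-1 cells. For PDK4 and PDK3 the groups did not overlap in either line (exact permutation p = 0.1, the smallest possible). The share of PDK1 was 9.55% ± 0.849 with vehicle and 9.38% ± 0.923 with DOX in QGP-1 cells, and 10.2% ± 0.813 and 11.7% ± 0.975 in BON-1 cells. These shares depend on the gene lengths behind the TPM values, and by CPM the PDK4 share in QGP-1 cells changed by −9.15 percentage points in place of −4.91.

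**Figure D2:**
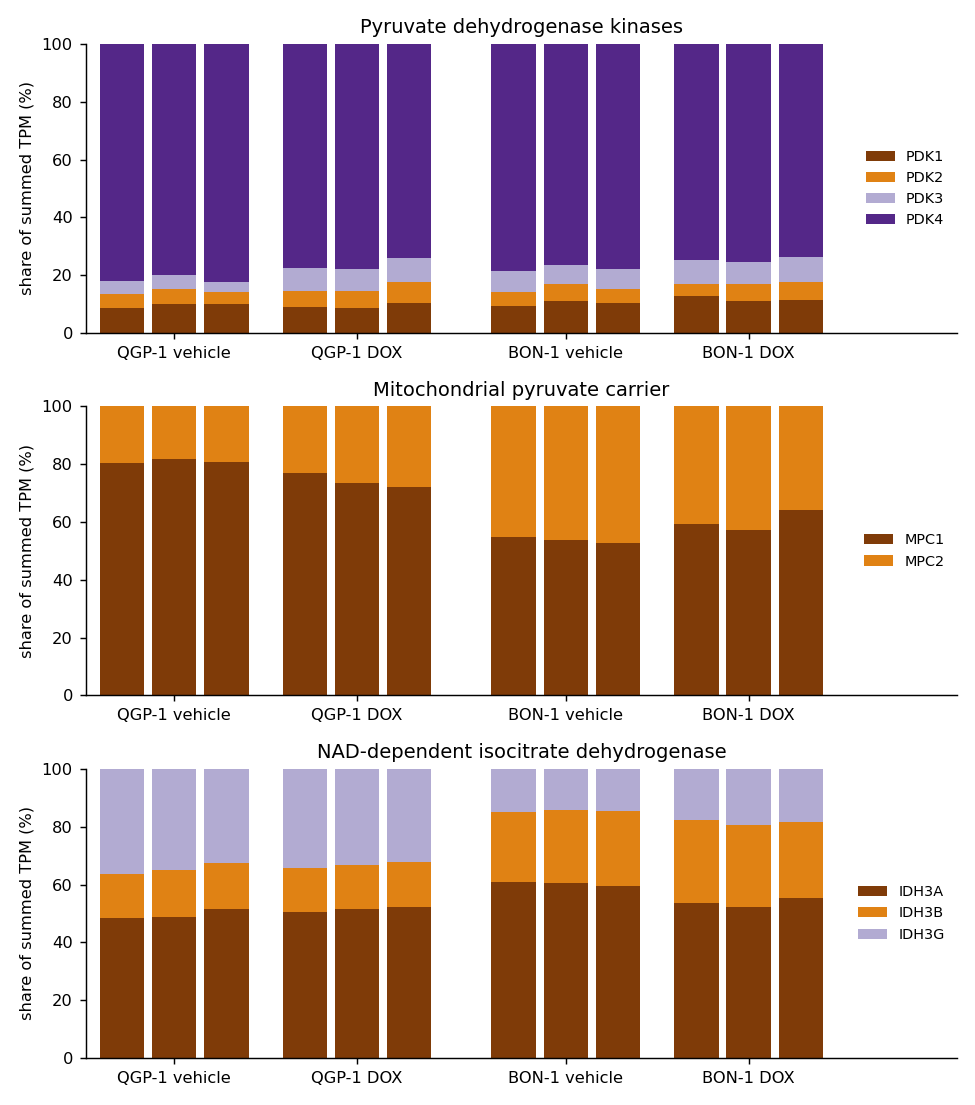
Share of each gene in the summed TPM of its group (y axis, percent), 1 stacked bar per library, for the kinases, the pyruvate carrier and the isocitrate dehydrogenase subunits. PDK4 fills 73.8% to 82.4% of the kinase bars, and the MPC1 share shrinks with DOX in QGP-1 and grows in BON-1.

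The first steps of the cycle moved little in QGP-1 cells. CS, citrate synthase, had log2 fold changes of 0.03 (QGP-1) and −0.12 (BON-1), neither past the threshold. IDH3A, the catalytic subunit of the NAD-dependent isocitrate dehydrogenase, was at −0.07 in QGP-1 cells. In BON-1 cells IDH3A fell by 0.36 on the log2 scale (standard error 0.07, edgeR adjusted p = 0.000383), from 216 ± 12.3 to 169 ± 2.31 CPM (SD, n = 3), and kept its call in all 6 fits that left out 1 library. The other subunits of that enzyme, IDH3B and IDH3G, had log2 fold changes of −0.18 and −0.18 (QGP-1) and of −0.04 and 0.16 (BON-1), none past the threshold. Per transcript length, the share of IDH3A in the 3 subunits went from 60.4% ± 0.734 to 53.7% ± 1.47 in BON-1 cells without overlap, and that of IDH3G from 14.5% ± 0.408 to 18.5% ± 0.874.

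IDH2, the mitochondrial NADP-dependent enzyme, had log2 fold changes of −0.08 (QGP-1) and −0.23 (BON-1) (edgeR adjusted p = 0.0294 in the latter). That BON-1 call was lost without vehicle replicate 1 (−0.16), DOX replicate 1 (−0.22) or DOX replicate 3 (−0.19), in 1 fit of both lines (−0.22) and after removal of the length trend (−0.17). Within the 2-oxoglutarate dehydrogenase complex, OGDH, the E1 subunit, rose in QGP-1 cells by 0.23 on the log2 scale (standard error 0.08, adjusted p = 0.0410). Its call was lost without vehicle replicate 2 (0.25), vehicle replicate 3 (0.15), DOX replicate 2 (0.18) or DOX replicate 3 (0.24), and after removal of the length trend (0.16). In BON-1 cells OGDH was at 0.16, and DLST, the E2 subunit, was at −0.11 in QGP-1 and −0.14 in BON-1 cells, none of which passed.

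Succinyl-CoA ligase pairs the alpha subunit SUCLG1 with either SUCLG2, which makes GTP, or SUCLA2, which makes ATP. SUCLG1 in QGP-1 cells was at 115, 116 and 122 CPM with vehicle and 84.8, 81.8 and 88.1 CPM with DOX. The groups were separate (log2 fold change −0.47, standard error 0.07, edgeR adjusted p = 0.000146). In BON-1 cells SUCLG1 was at 106, 114 and 119 CPM with vehicle and 129.6, 110.3 and 120.3 CPM with DOX, an overlap with a log2 fold change of 0.09 (adjusted p = 0.420).

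SUCLG2 went from 22.5, 23.6 and 25.0 CPM with vehicle to 16.8, 18.0 and 14.3 CPM with DOX in QGP-1 cells (log2 fold change −0.53, standard error 0.11, edgeR adjusted p = 0.00156). In BON-1 cells it went from 47.8, 43.0 and 49.4 CPM to 57.2, 57.3 and 53.9 CPM (log2 fold change 0.27, standard error 0.09, adjusted p = 0.0215). Neither line showed an overlap of its groups, and the order was opposite. The BON-1 call of SUCLG2 was lost without vehicle replicate 2 (0.20), DOX replicate 1 (0.24) or DOX replicate 2 (0.24). SUCLA2 had log2 fold changes of −0.05 (QGP-1) and 0.24 (BON-1) (adjusted p = 0.657 and 0.0269). Of the 6 fits without 1 library, SUCLA2 passed in 1, that without BON-1 vehicle replicate 3, and its values ran from 0.20 to 0.26. It was also lost by library size in place of TMM (0.19) and with no filter on low counts (0.22). The share of SUCLG2 in the 2 beta subunits, per transcript length, went from 25.4% ± 0.869 (SD, n = 3) to 19.7% ± 2.51 in QGP-1 cells without overlap, and was 37.2% ± 1.06 and 37.8% ± 0.929 in BON-1 cells, with overlap.

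Succinate dehydrogenase is both a TCA enzyme and complex II of the respiratory chain, with SDHA and SDHB as its catalytic subunits and SDHC and SDHD as its membrane anchors. In QGP-1 cells SDHB, SDHC and SDHD fell, and SDHA did not pass. SDHB was at 53.1, 56.8 and 56.6 CPM with vehicle and 38.9, 40.6 and 41.4 CPM with DOX (log2 fold change −0.46, standard error 0.08, edgeR adjusted p = 0.000418). SDHC was at 211, 225 and 250.3 CPM with vehicle and 161, 148 and 169 CPM with DOX (−0.52, standard error 0.08, adjusted p = 0.000183). SDHD was at 121, 121 and 135 CPM with vehicle and 94.5, 91.8 and 99.5 CPM with DOX (−0.40, standard error 0.07, adjusted p = 0.00075). All 3 genes had separate groups, while SDHA had a log2 fold change of −0.10 (adjusted p = 0.396).

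In BON-1 cells SDHB was at 95.2, 93.9 and 90.2 CPM with vehicle and 97.4, 91.0 and 92.5 CPM with DOX, a log2 fold change of 0.01. SDHC was at 200.4, 221 and 207 CPM with vehicle and 222, 193 and 201 CPM with DOX, a log2 fold change of −0.03. Both overlapped and neither passed (edgeR adjusted p = 0.955 and 0.796). SDHD was at 110.4, 108 and 122 CPM with vehicle and 132, 121 and 145 CPM with DOX in that line (0.23, standard error 0.08, adjusted p = 0.0312), with DOX replicate 2 just under the highest vehicle library. That call was lost without vehicle replicate 1 (0.21), vehicle replicate 2 (0.19), DOX replicate 1 (0.22) or DOX replicate 3 (0.14), and by library size in place of TMM (0.18). SDHA was at −0.19 in BON-1 cells (adjusted p = 0.0946), and passed by library size (−0.23).

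FH, fumarase, fell in both lines. In QGP-1 cells it was at 83.7, 73.0 and 84.7 CPM with vehicle and 61.6, 63.3 and 67.6 CPM with DOX. In BON-1 cells it was at 64.9, 66.0 and 57.5 CPM with vehicle and 50.1, 52.2 and 49.4 CPM with DOX. The DOX libraries lay below the vehicle libraries in each line, with log2 fold changes of −0.33 (standard error 0.08, edgeR adjusted p = 0.00606) and −0.31 (standard error 0.09, adjusted p = 0.00599). Both calls held in all fits that left out 1 library. MDH2, the mitochondrial malate dehydrogenase that closes the cycle, fell in QGP-1 cells by 0.30 on the log2 scale (standard error 0.06, adjusted p = 0.00251), from 330.1 ± 11.4 to 269 ± 8.61 CPM (SD, n = 3). In BON-1 cells MDH2 had a log2 fold change of −0.15, which did not pass.

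Among the cytosolic counterparts, MDH1, the malate dehydrogenase of the malate-aspartate shuttle, had the largest fall in QGP-1 cells. Its level there was 234, 239.5 and 286 CPM with vehicle and 189, 153 and 176 CPM with DOX, with separate groups (log2 fold change −0.55, standard error 0.09, edgeR adjusted p = 0.000407). In BON-1 cells MDH1 was at 239, 299 and 293 CPM with vehicle and 276, 224 and 217 CPM with DOX, an overlap (−0.21, adjusted p = 0.0700). The BON-1 value passed without vehicle replicate 1 (−0.31), without DOX replicate 1 (−0.34), by library size (−0.26) and with no filter on low counts (−0.24). IDH1, the cytosolic NADP-dependent isocitrate dehydrogenase, was at −0.24 in QGP-1 cells (adjusted p = 0.0327) and −0.13 in BON-1 cells (adjusted p = 0.178). Its call in QGP-1 cells did not hold without vehicle replicate 3 (−0.15), DOX replicate 2 (−0.19) or DOX replicate 3 (−0.27), and after removal of the length trend (−0.20). ACO1, the cytosolic aconitase that doubles as an iron-regulatory protein, had log2 fold changes of 0.09 and −0.21, neither past the threshold. Without BON-1 DOX replicate 2 the latter was −0.34 and passed.

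Whether the response differed between the lines was tested with an interaction term for line and DOX, fitted in edgeR to all 12 libraries. It passed for 9 of the 31 genes, in this fit all with a more positive log2 response in BON-1 cells, where 8.80% of the 16598 genes tested passed in that direction and 7.92% in the other. For MPC1 the BON-1 response exceeded that of QGP-1 by 1.12 on the log2 scale (standard error 0.14, edgeR adjusted p = 3.03e-06). For PDK1 the difference was 1.00 (standard error 0.13, adjusted p = 6.42e-06) and for PDK4 it was 0.80 (standard error 0.11, adjusted p = 1.81e-05). For the succinyl-CoA ligase genes SUCLG2 and SUCLG1 it was 0.81 and 0.57 (adjusted p = 0.000228 and 0.000556). For SDHD, SDHC and SDHB it was 0.64, 0.50 and 0.48 (adjusted p = 0.000363, 0.00298 and 0.00294), and for DLD 0.44 (adjusted p = 0.0053). These 9 calls held in all 12 fits that left out 1 library and in all 6 other fits tried. IDH3A went the other way, with a difference of −0.28 that lay just outside the threshold (edgeR adjusted p = 0.0556). It passed in 10 of the 18 other fits, 5 of them fits without 1 library (QGP-1 DOX replicate 1, BON-1 vehicle replicate 2 or 3, BON-1 DOX replicate 2 or 3) and the others DESeq2, library size scaling, no filter, the filter of 10 counts and removal of the length trend, with values from −0.35 to −0.24 over all 18. FH and PDK3, which were called in the same direction in both lines, had differences of 0.02 and 0.10 that did not pass (adjusted p = 0.951 and 0.695).

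**Figure D3:**
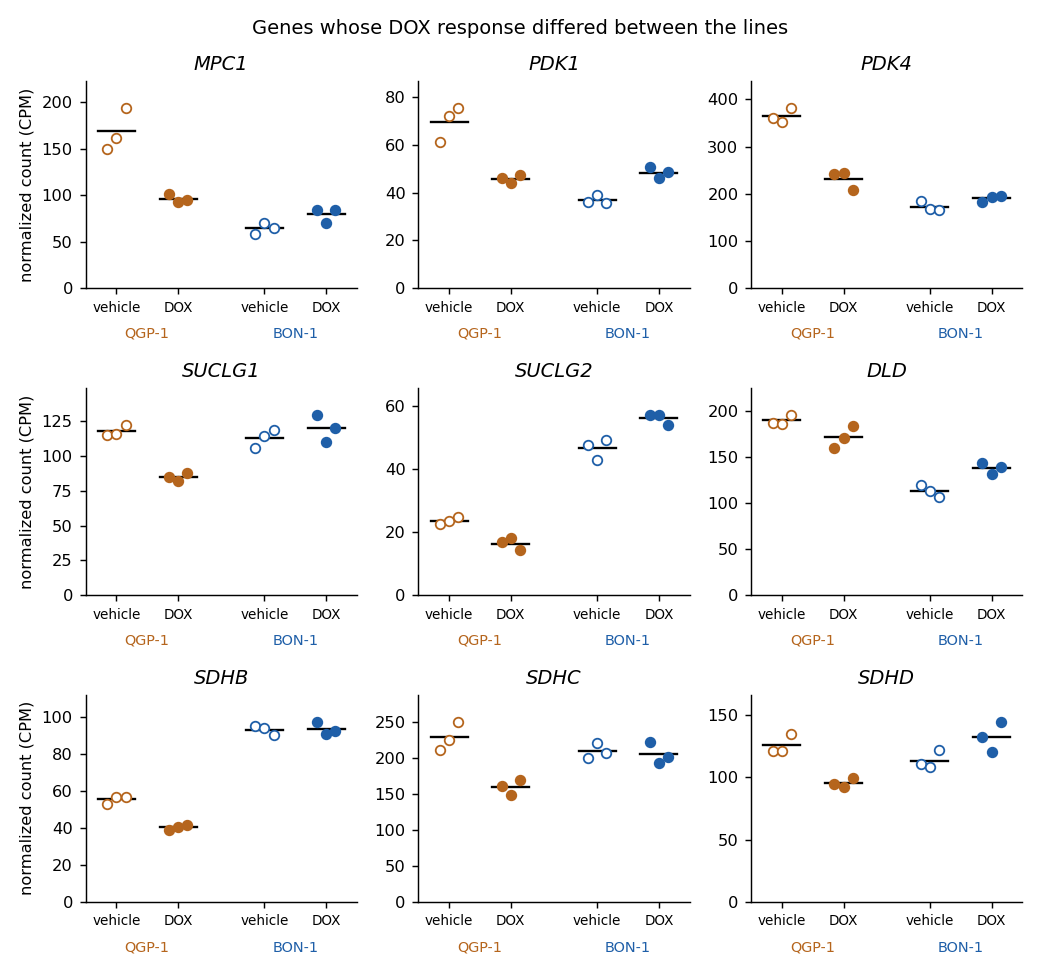
Normalized count (CPM, y axis from 0) in each library of the 9 genes whose response differed between the lines, with open points for vehicle, filled points for DOX and a line at the mean of 3. MPC1, PDK1 and PDK4 drop in QGP-1, whereas in BON-1 the DOX points of PDK1 lie above the vehicle points.

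At vehicle, in the same fit, 15 of the 31 genes were lower and 7 were higher in BON-1 than in QGP-1 cells, where 37.5% of all genes tested were lower and 37.5% were higher. All 4 kinases were lower in BON-1 cells, with log2 differences of −1.15 for PDK4, −0.99 for PDK1, −0.95 for PDK2 and −0.37 for PDK3 (edgeR adjusted p = 1.77e-12, 4.58e-10, 3.32e-06 and 0.00195). MPC1 stood at 173 CPM in QGP-1 cells and 62.5 CPM in BON-1 cells, a 2.77-fold higher level in the former, whereas MPC2 stood at 79.9 and 106 CPM and was higher in BON-1 cells (0.41, adjusted p = 0.00109). IDH3G was 2.68-fold higher in QGP-1 cells (adjusted p = 7.43e-13), while IDH3B was higher in BON-1 cells (0.48, adjusted p = 9.34e-06) and IDH3A did not pass (0.11, adjusted p = 0.148). DLD and DLAT were lower in BON-1 cells (−0.82 and −0.80), as were OGDH (−0.56), MDH2 (−0.57), FH (−0.43), IDH1 (−0.38), PDHB (−0.34), SDHD (−0.23) and SDHC (−0.21). Higher in BON-1 cells were SUCLG2 (0.90), DLST (0.87), SDHA (0.77), SDHB (0.67) and IDH2 (0.39). Without QGP-1 vehicle replicate 3 the calls for PDHB, SDHC and SDHD were lost. Those for PDHB and SDHC were lost without BON-1 vehicle replicate 1, those for PDHB and SDHD without BON-1 vehicle replicate 2, that for PDHB without QGP-1 vehicle replicate 2, and that for SDHC without BON-1 vehicle replicate 3 or BON-1 DOX replicate 2. CS, ACO1, SUCLG1, SUCLA2, MDH1, PDHA1, PDHX and PC did not pass. By library size in place of TMM, IDH3A, SUCLA2 and PDHX passed as higher in BON-1 cells, and the calls for SDHC, SDHD and PDHB were lost. With the filter of 10 counts per library, IDH3A passed as higher and the calls for SDHC and PDHB were lost. After removal of the length trend SUCLG1 passed as lower. The vehicle libraries enter this comparison and the interaction alike.

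Response to DOX moved with gene length, as read from the ratio of counts to TPM. In QGP-1 cells the median log2 fold change rose from −0.22 in the shortest sixth of all genes to 0.17 in the longest, and in BON-1 cells from −0.09 to 0.07. The difference between the shortest and the longest sixth, relative to the mean of the line, was 0.16 to 0.26 in QGP-1 vehicle libraries and −0.27 to −0.13 in QGP-1 DOX libraries. In BON-1 cells it was 0.06 to 0.12 with vehicle and 0.05, −0.09 and −0.18 with DOX. Of the 31 genes, 12 lay in the shortest 2 sixths in QGP-1 cells. MPC1, SUCLG1, SDHB, SDHD, FH and MDH1 among them were called lower there, while IDH2, IDH3B, IDH3G, SUCLA2, PDHB and MPC2 were not called. The longest 2 sixths held 3, OGDH, PDK1 and PDK3. A smooth trend with length was then taken out of each library, a step chosen after seeing the data. In QGP-1 cells 11 of the 31 genes remained lower and 0 higher. Over all 15089 genes tested there, 2472 were lower and 2060 higher, against 2676 and 2610 without that step. All 11 were among the 12 called without it, and the log2 fold changes were −0.65 for MPC1, −0.70 for PDK1, −0.67 for PDK4, −0.27 for SDHB, −0.26 for SDHD, −0.32 for SUCLG1 and −0.22 for FH (edgeR adjusted p = 0.0469 for FH, the nearest to the threshold). After this step BON-1 cells had 3 of the 31 genes lower and 7 higher, where 2723 and 2394 of the 14625 genes tested were lower and higher. All 9 interaction calls held.

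**Figure D4:**
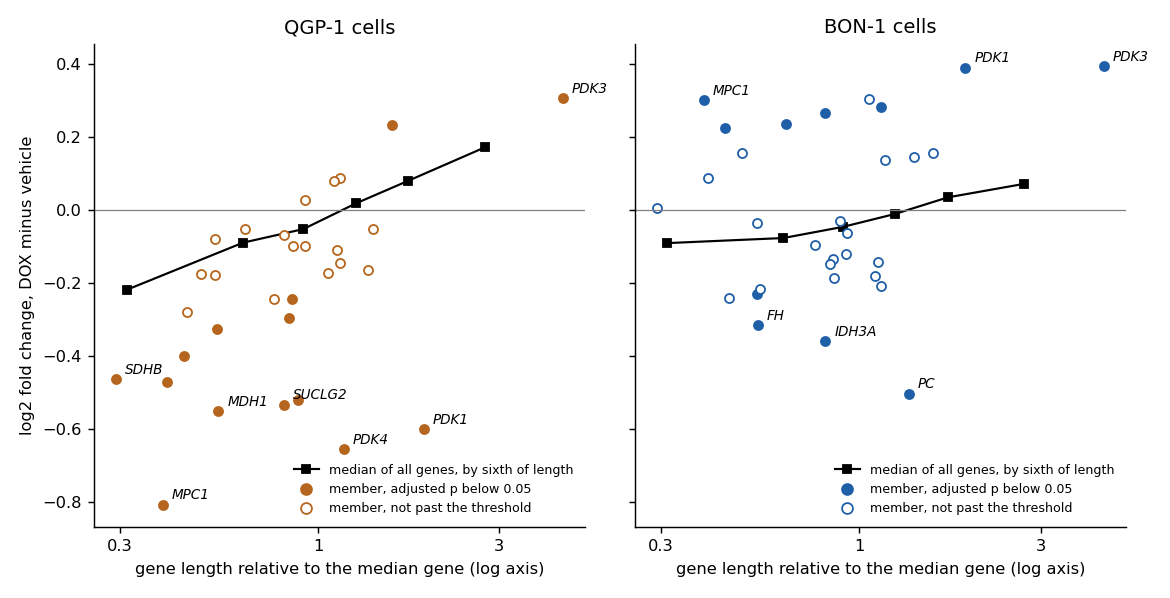
Log2 fold change (DOX minus vehicle, y axis) against gene length relative to the median gene (log axis), with black squares for the median of all genes in each sixth of length and circles for the 31 genes, filled where the edgeR adjusted p was below 0.05. In QGP-1 the squares climb from −0.22 to 0.17, with MPC1 at −0.81 and PDK1 at −0.60 below them.

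Other genes of the pathway were counted from lists written down with earlier results of these data known. Of 18 tested partners of pyruvate dehydrogenase and the TCA cycle, 5 were lower and 3 higher in QGP-1 cells, and 3 were lower and 4 higher in BON-1 cells, with medians of −0.20 and −0.02. Counts of this and the next lists stand against 17.7% of all genes lower and 17.3% higher in QGP-1 cells, and 18.3% and 17.0% in BON-1 cells. DHTKD1, the E1 subunit of the 2-oxoadipate dehydrogenase complex, fell by 1.06 and 0.88 on the log2 scale in the 2 lines, and OGDHL, a paralogue of OGDH, by 0.92 and 0.52 (edgeR adjusted p = 7.2e-07, 1.09e-07, 6.63e-05 and 0.0114). Without vehicle replicate 1 the BON-1 value of OGDHL did not pass. PDP1, the phosphatase that reverses the action of the kinases on pyruvate dehydrogenase, rose by 0.37 and 0.73 (adjusted p = 0.00539 and 0.00021). PDP2, the other catalytic subunit of the phosphatase, named here after its values were seen, was lower in BON-1 cells (−0.29, edgeR adjusted p = 0.0169, in 4 of 6 fits that left out 1 library), from 41.9 to 34.2 mean CPM, where PDP1 went from 11.6 to 19.2. In QGP-1 cells PDP2 was at 0.18 and did not pass (adjusted p = 0.0574). PDPR, a regulatory subunit of that phosphatase, rose by 0.44 in QGP-1 cells, and DBT, the E2 subunit of the branched-chain keto acid dehydrogenase, by 0.37 and 0.66. SDHAF3, an assembly factor of succinate dehydrogenase, was lower in QGP-1 cells (−0.29, in 4 of 6 fits that left out 1 library) and higher in BON-1 cells (0.64, in 6 of 6).

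Of 19 tested genes for anaplerosis, shuttles and carriers, 9 were lower and 2 higher in QGP-1 cells, and 4 were lower and 4 higher in BON-1 cells. LDHA, the lactate dehydrogenase subunit that competes for pyruvate, had log2 fold changes of −0.97 and −1.14, and LDHB one of −0.62 in QGP-1 cells (edgeR adjusted p = 4.31e-07, 3.41e-12 and 0.00172). PCK2, the mitochondrial phosphoenolpyruvate carboxykinase, fell by 0.66 and 0.72. ME3, a mitochondrial malic enzyme, rose by 0.84 in BON-1 cells. The carrier SLC25A11 was lower in both lines (−0.32 and −0.39), in 4 and 3 of 6 fits that left out 1 library. The malic enzyme ME1 and the aspartate-glutamate carrier SLC25A12 were lower in QGP-1 cells (−0.22 and −0.29, in 1 and 3 of the 6 fits) and higher in BON-1 cells (0.44 and 0.32, in 6 and 6).

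Of 11 HIF1 targets other than the 31 genes, 10 were tested in QGP-1 cells, where 6 were lower and 0 higher, with a median of −0.37. The largest falls were those of EGLN3, the prolyl hydroxylase PHD3, at −1.44 and of P4HA1, a collagen prolyl hydroxylase, at −0.98 (edgeR adjusted p = 3.1e-06 and 1.6e-05), and ANKRD37 was at −0.82 (in 1 of 6 fits that left out 1 library). In BON-1 cells 1 of 11 was lower and 3 were higher, with a median of 0.14, and the largest changes were those of ADM (1.05), CA9 (−0.73) and NDRG1 (0.51). Of 11 regulators of mitochondrial gene expression, 2 were lower and 2 higher in QGP-1 cells, and 2 were lower and 1 higher in BON-1 cells. PPRC1 rose by 0.36 in QGP-1 cells, PPARGC1A was at −0.33 there (in 4 of the 6 fits) and PPARGC1B at −0.81 in BON-1 cells (in 3 of 6). MYC was higher in both lines (0.24 and 0.30), in 1 and 4 of the 6 fits, and TFB2M was at −0.31 in BON-1 cells, in 1 of 6.

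Some reads of these genes could be shared with other loci in ways the sources used here do not settle. GENCODE 44 names 6 pseudogenes of SDHD, 4 each of SDHA and SDHC, 3 of SUCLA2 and 2 each of CS, SUCLG2 and MDH1, but none of MPC1, PDK3 or PDK4. On the opposite strand, SAMD14 covers 38.6% of the exonic bases of PDK2, ACSBG1 38.2% of those of IDH3A and DCAF6 21.8% of those of MPC2. The library kit keeps the strand, but whether the counting used it is not given in the sources used here. On the same strand, annotated transcripts of other gene entries cover 21.7% of SDHA and 11.4% of SDHD.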

How the data were processed

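RNA was sequenced from QGP-1 and BON-1 cells with stranded mRNA libraries. Per the labels and the study's methods, the authors aligned reads with STAR to GRCh38 and deposited raw read counts per gene and TPM values, which the values show to come from those counts, for each line. The counting program, its strand setting and the gene lengths behind TPM are not given in the sources used here. The quasi-likelihood test of edgeR 4.0.16 (R 4.3.3) was run on the counts (default filter on low counts, TMM, Benjamini-Hochberg adjustment over all genes tested, threshold 0.05, no minimum fold change), in each line and, for the interaction and the vehicle comparison, in 1 fit of 12 libraries. A standard error is the log2 fold change over the square root of F. The deposited TPM served only for shares within a library, relative gene length and the place of PC among the 31 genes within each group, since RN7SK and RN7SL RNAs took 50.9% to 80.3% of TPM.

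The alternatives were DESeq2 1.42.0, scaling by library size, no filter, both lines in 1 fit, a filter of 10 counts per library, a replicate block, a minimum absolute log2 fold change of 1, each library left out in turn and, added after seeing the data, removal of a lowess trend with gene length (span 0.3). Deviations from the group mean correlated no more between same-numbered libraries (r from −0.04 to 0.07) than between differently numbered ones (−0.13 to 0.09). Libraries of 1 group differed beyond counting noise (chi-square per gene 5.72 to 28.2). The methods call the replicates biologic triplicates. The 31 members and the other lists were chosen with earlier results of these data known. All 31 are named, with values per library where a gene was called in both lines or in the interaction, or in 1 line with an absolute log2 fold change of at least 0.5, and list genes are named where called in both lines or among the 3 largest calls of a list and line, except 1 that is not reported here. The code was tested on simulated data. Promoters and their coordinates are from RefSeq (GRCh38.p14), overlaps and pseudogenes from GENCODE 44.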

Additional observations from a re-analysis of the deposited data

Results flagged for a closer look

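The response to DOX differed between the lines, by the interaction test in edgeR, for 9 of the 31 genes. In each of these the log2 response was more positive in BON-1 than in QGP-1 cells. The differences were 1.12 for MPC1 and 1.00 for PDK1, which were called as lower in QGP-1 and higher in BON-1 cells, and likewise 0.81 for SUCLG2 and 0.64 for SDHD. They were 0.80 for PDK4, 0.57 for SUCLG1, 0.50 for SDHC and 0.48 for SDHB, which were called as lower in QGP-1 cells alone, and 0.44 for DLD, which was called as higher in BON-1 cells alone. IDH3A differed in the opposite direction by −0.28 and did not pass (adjusted p = 0.0556), but passed in 10 of 18 other fits. Groups of 3 libraries were not searched for outlying samples.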

How the results depend on the processing

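Of the counts, 12 genes lower in QGP-1 cells (11 to 13 with 1 library left out), 9 with a different response (9 to 11), and 7 higher (7) and 15 lower (12 to 15) in BON-1 at vehicle stayed within 1.5 times under the alternatives run, except that 0 members passed in either direction in either line at a minimum absolute log2 fold change of 1. Over all genes, 360 were lower and 183 higher in QGP-1 cells at that minimum, and 447 and 272 in BON-1 cells. That minimum was run for the DOX comparisons alone, and the replicate block was not run for the vehicle comparison. The 2 genes higher in QGP-1 cells became 0 after removal of the length trend, where 2060 of all genes were higher. With 1 library left out they became 0 to 2. The 4 lower in BON-1 cells became 2 with both lines in 1 fit, where 2471 of all genes were lower. With 1 library left out they became 2 to 5, and the 7 higher there 4 to 6. Counts over all genes moved too with 1 library left out. In QGP-1 cells 1996 to 2614 genes were lower (2676 in the main fit) and 1975 to 2644 higher (2610). In BON-1 cells 2194 to 2577 were lower (2677) and 1908 to 2196 higher (2488). A different response was called for 2114 to 2930 genes (2776). At vehicle, 5879 to 6524 were higher in BON-1 cells (6220) and 5967 to 6395 lower (6217). By the replicate block, QGP-1 cells had 14 members lower and 2 higher, BON-1 cells 4 and 7, and 9 members had a different response. Of all genes, 2738 were lower and 2749 higher with that block in QGP-1 cells, and 2656 and 2408 in BON-1 cells. With the block, 2771 of all genes had a different response. The labels do not say that equal replicate numbers share a culture. By CPM in place of TPM, the PDK4 share changed by −9.15 points in QGP-1 cells (−5.72 to −3.77 by TPM with 1 library left out) and −4.12 in BON-1 cells (−3.48 to −2.50), and the MPC1 share by −8.98 in QGP-1 cells (−8.16 to −5.76). No called log2 fold change of a member reversed. MUC1 stayed lower in all fits, at −3.09 to −2.79 in QGP-1 and −3.19 to −2.53 in BON-1 with 1 library left out. Calls near 0.2 to 0.3 on the log2 scale in BON-1 cells rest on 3 libraries a group and often did not survive the loss of 1. Depth limits PC most, with vehicle means of 9.24 CPM (QGP-1) and 8.85 CPM (BON-1).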
